A study of Mus musculus with 4 samples.

Results

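The integrated stress response regulators described here are 10 genes, Ddit3, Chac1, Trib3, Atf3, Atf4, Atf5, Cebpb, Ddit4, Ppp1r15a and Nupr1, out of 28842 gene names on the array. They were chosen by their measured values in these same lenses: several were picked because they are high in Celf1 cKO lenses, and Ppp1r15a because it is low. Differences of these genes between the genotypes are therefore given as a description, without a test. Every probe of a member was read on its own, which gave 14 probes. Of these, 13 probes of 9 genes carried the member's symbol in the files, and the probe of Ppp1r15a stood under its older symbol Myd116 and was matched through its Entrez identifier. Expression in lenses at postnatal day 6 (P6) was read with the MouseWG-6 v2.0 BeadChip of Illumina, 1 lens to an array. The Celf1 cKO lenses (n = 2, replicates A and B) came from mice with a lacZ knock-in allele of Celf1 (Celf1lacZKI), a conditional allele whose floxed exon is removed by Cre, and the Pax6GFPCre transgene. That transgene is active mainly in the lens and pancreatic lineages. The Control lenses (n = 2, replicates A and B) were Celf1lacZKI/+, so that both genotypes carried the lacZ knock-in, while the methods give the Cre transgene to the cKO mice. The background of the mice was a mixture of C57BL/6 and FVB, and their sex is not labelled.

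The integrated stress response is a pathway by which cells answer misfolded protein in the endoplasmic reticulum, lack of amino acids, heme deficiency or viral RNA. Stress-sensing kinases phosphorylate the translation initiation factor eIF2, which lowers protein synthesis in general while the mRNA of the transcription factor ATF4 is translated more. ATF4 and its partners of the basic leucine zipper (bZIP) family then induce further factors, such as CHOP, and effectors that act on amino acid supply, redox balance, growth and cell death, and GADD34 closes the loop by bringing a phosphatase to eIF2. The lens, whose fiber cells make very large amounts of crystallin and later degrade their organelles, is a tissue in which this pathway has been studied in cataract models.

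ATF4 binds DNA at composite elements, called CARE (C/EBP-ATF response elements), whose core was searched for as TGATGNAA on both strands (TTNCATCA on the other strand). The cyclic AMP response element (CRE), a site of bZIP factors of the ATF and CREB group, was searched for as TGACGTCA. The promoter windows were taken from RefSeq (GRCm38.p6), with 250 bases before and 50 bases from each transcription start, and all 10 genes had one. The CARE core was found in the windows of 4 of the 10 genes, and in 3.97% of all 32851 windows of this length (4.51% of 27025 genes). The CRE was found in 1 of the 10 genes, Ppp1r15a, and in 1.79% of all windows (2.03% of genes). The stretches around these matches are shown because they place the element in the genes whose signal is described below. They lie at chr1:191183400-191183479 (Atf3, minus strand), chr2:119351013-119351092 (Chac1, plus strand), chr7:126625537-126625616 (Nupr1, minus strand), chr2:152344029-152344056 (Trib3, minus strand) and chr7:45526269-45526348 (Ppp1r15a, minus strand). Each is written 5′ to 3′ on the strand of its gene, and the capitals mark the CARE core or, for Ppp1r15a, the CRE.
Atf3: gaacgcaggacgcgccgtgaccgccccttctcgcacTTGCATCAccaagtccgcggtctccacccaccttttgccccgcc
Chac1: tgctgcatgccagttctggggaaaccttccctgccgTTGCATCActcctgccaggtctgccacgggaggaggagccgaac
Nupr1: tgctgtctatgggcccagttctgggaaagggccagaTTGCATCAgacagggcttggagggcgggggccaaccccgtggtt
Trib3: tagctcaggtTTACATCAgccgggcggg
Ppp1r15a: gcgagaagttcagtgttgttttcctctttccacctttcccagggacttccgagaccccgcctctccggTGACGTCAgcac
Atf3, Chac1 and Nupr1 held the same 8 letters upstream of their start, and the match of Trib3 lay just downstream of its start. Bases are numbered from the start, with negative numbers upstream. The CARE core ran from -110 to -103 in both Atf3 and Nupr1, from -193 to -186 in Chac1 and from 15 to 22 in Trib3. The CRE of Ppp1r15a ran from -12 to -5. A match of letters is a description of the sequence and does not show binding.

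**Figure D1:**
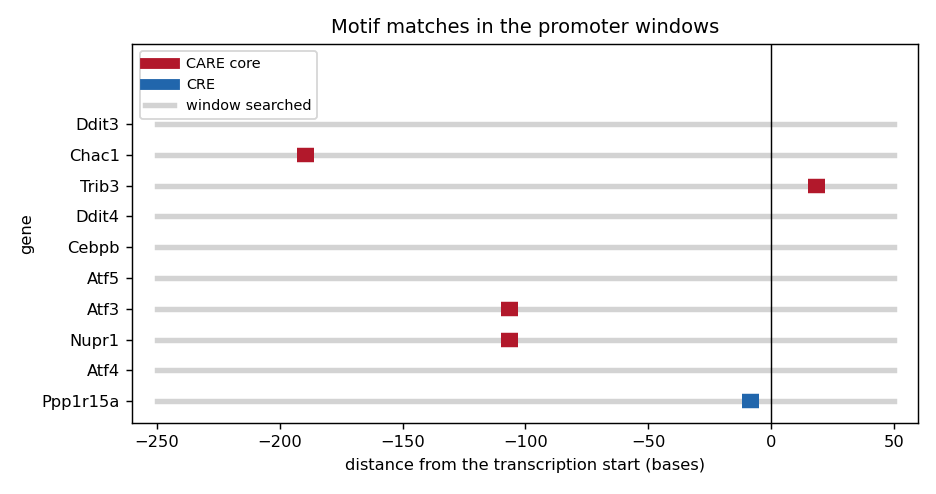
Positions of the CARE core (red) and the CRE (blue) in the promoter window of each gene (grey), with distance from the transcription start in bases on the horizontal axis and the genes on the vertical axis. The CARE core is drawn in 4 of the 10 genes, at the same distance in Atf3 and Nupr1, and the CRE in Ppp1r15a alone.

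A probe counted as above background where its detection p-value, which ranks it against negative control beads, was under 0.05. The cKO arrays were brighter, with 16261 and 16925 probes above background against 14542 and 14180 on the Control arrays, so every member is also given under other scalings below. Celf1, the targeted gene, was called reduced in cKO, at a log2 fold change of -1.44 ± 0.20 (SE, n = 2 and 2; limma, adjusted p = 0.0109). With a common median over all probes its log2 fold change was -0.64 and without scaling between the arrays -0.60, still called in both. Its call was lost without cKO B (adjusted p = 0.0654), in the authors' table with values under 1 set to 1 (0.0762) and without a detection filter (0.0732). Xist, the RNA of the inactive X chromosome, was above background on the cKO arrays by all 4 of its probes and on no Control array. Y-linked Ddx3y was lower in cKO (log2 fold change -3.12 ± 0.57, limma, adjusted p = 0.0211). This rests on 1 of its 3 probes, which was above background in all 4 lenses. Its log2 signals were 6.86 in cKO A and 4.83 in cKO B, against 9.06 and 8.88 in Control A and B. Sex and genotype cannot be told apart in these 4 lenses. Of 6 lens fiber markers all were tested, and Bfsp2 was called reduced, with Lim2 lower at an unadjusted p under 0.05 (-0.47). Of 4 lens epithelium markers 3 were tested and all 3 were lower at an unadjusted p under 0.05, with Foxe3 called reduced (-0.82), Cdh1 at -0.54 and Pdgfra at -1.13 not called, and a summed linear signal of 177 to 306 in cKO against 411 to 436 in Control. Of 4 blood markers 3 were tested, and Slc4a1 was called reduced, while the groups overlapped for Hbb-b1 (0.05) and Hba-a1 (-0.08). The summed blood signal was 1414 to 3162 in cKO and 1932 to 2391 in Control. Of 4 vessel markers 3 were tested and limma called 0, with Cdh5 at 0.60 and Kdr at -0.61 under an unadjusted p of 0.05. None of the 6 retina, 5 pigment cell and 4 muscle markers was retained. Of 5 macrophage markers 3 were tested, and Cd68, above background in cKO lenses alone, was retained through them, so that no call is given for it. The summed macrophage signal was 118 to 123 in cKO and 109 to 118 in Control. The part of these cell types in the values below was not tested, and in whole lenses more cells of a type cannot be told apart from more RNA in each cell.

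Of the 14 member probes, 13 were higher in both cKO lenses than in both Control lenses, 1 was lower in both (Ppp1r15a), and 0 overlapped. Over all 16262 retained probes, which are those above background in at least 2 samples, 32.4% were higher in this way and 28.7% were lower. Because the members were picked by this contrast, nothing is read from these counts. The median log2 difference, cKO minus Control, was 0.96 over the member probes and 0.02 over all retained probes. All 14 member probes were above background in both cKO lenses. In the Control lenses 8 were above background in both, and 6 were above background in neither. Those 6, for Atf3, Chac1, one of the Ddit3 probes and all 3 Trib3 probes, were retained through the cKO lenses alone. Their fold is therefore a lower bound, written "at least", which sets the mean of the cKO lenses against the higher of the probe's own value and the lowest signal above background on each Control array. Values are on the log2 scale after background correction with an offset of 16 and quantile normalization, and signals of different probes are not read as amounts of RNA.

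**Figure D2:**
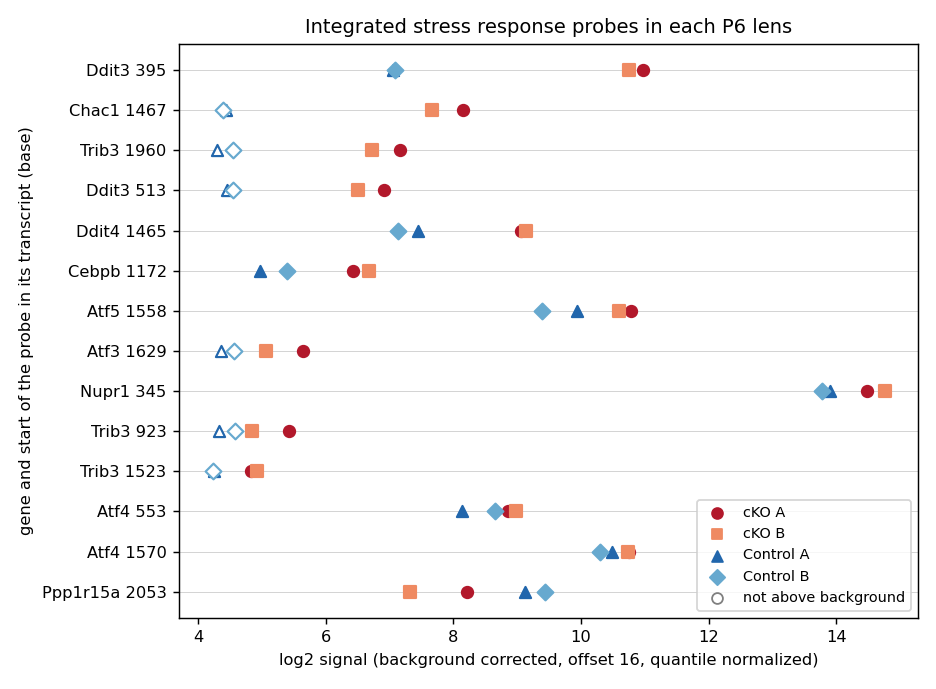
The log2 signal of each of the 14 member probes (vertical axis, named by gene and by the base of the transcript where the probe starts) in the 2 cKO lenses (red and orange) and the 2 Control lenses (blue), with open symbols for values not above background. The cKO symbols lie to the right of the Control symbols for 13 probes and to the left for Ppp1r15a.

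Atf4, which encodes the transcription factor at the centre of the pathway, was measured by 2 probes. The probe that starts at base 1570 of its transcript had log2 signals of 10.75 in cKO A, 10.74 in cKO B, 10.49 in Control A and 10.31 in Control B, a difference of 0.34 ± 0.16 (SE, n = 2 and 2). Its second probe, at base 553, had 8.86 in cKO A, 8.99 in cKO B, 8.14 in Control A and 8.65 in Control B, a difference of 0.53 ± 0.20. Both cKO lenses were above both Control lenses by each probe, and the gap between the nearest lenses of the groups was 0.24 and 0.21. ATF4 output is set in large part at translation, which an array of mRNA does not measure.

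Ddit3, which encodes CHOP, a bZIP factor tied to cell death under prolonged stress, was measured by 2 probes. The probe at base 395, above background in all 4 lenses, had log2 signals of 10.98 in cKO A, 10.75 in cKO B, 7.06 in Control A and 7.08 in Control B, a difference of 3.79 ± 0.16, or 13.9-fold. The 2 lenses of each genotype lay close together, and the gap between the groups was 3.67. The probe at base 513 had 6.91 in cKO A and 6.51 in cKO B, against 4.46 and 4.54 in Control A and B, where it was not above background. The bound was at least 3.90-fold, cKO over Control.

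Atf5, a relative of ATF4 whose mRNA is also under translational control, had log2 signals of 10.79 in cKO A, 10.60 in cKO B, 9.94 in Control A and 9.40 in Control B. The difference was 1.03 ± 0.21, or 2.04-fold, and the groups were 0.66 apart. In Control B this probe rested on 12 beads with a standard error of 29.4% of its intensity, the widest among the members, and against Control A alone the difference was 0.76. Atf3, an early stress-induced factor that can repress its targets, had 5.64 in cKO A, 5.07 in cKO B, and 4.36 and 4.57 in Control A and B, where it was not above background. The bound was at least 1.53-fold, and the cKO lenses differed from each other by more than their nearer one differed from Control B. Cebpb, a bZIP partner of ATF4 and CHOP, had 6.43 in cKO A, 6.68 in cKO B, 4.98 in Control A and 5.40 in Control B. The difference was 1.37 ± 0.20, or 2.58-fold, with a gap of 1.03 between the groups.

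Ppp1r15a, which encodes the stress-induced eIF2 phosphatase subunit GADD34 and is itself a target of the pathway, was the member picked as low. It had log2 signals of 8.21 in cKO A, 7.32 in cKO B, 9.12 in Control A and 9.43 in Control B, a difference of -1.51 ± 0.29. Control was 2.85-fold above cKO, and the gap between the groups was 0.91. Its cKO lenses also stood farthest apart of all member probes, with an SD of 0.63 against 0.22 in the Control lenses. Unnormalized, the intensity was 394 and 240 in cKO A and B and 479 and 454 in Control A and B, so that on the brighter cKO arrays the probe was still dimmer.

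Chac1, whose product degrades glutathione and which is a target of ATF4, had log2 signals of 8.16 in cKO A and 7.67 in cKO B. In Control A and B it lay at 4.43 and 4.39, not above background, which put the bound at 8.99-fold or more. Its unnormalized intensity was 381 and 300 in the cKO lenses and 49.4 and 43.2 in the Control lenses.

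Trib3, a pseudokinase induced by ATF4 and CHOP that holds back both ATF4 and Akt, was measured by 3 probes, none above background in Control. The probe at base 1960 had 7.16 in cKO A, 6.73 in cKO B, 4.29 in Control A and 4.54 in Control B, a bound of at least 4.595-fold. The probe at base 923 had 5.43 in cKO A, 4.85 in cKO B, 4.33 in Control A and 4.58 in Control B, a bound of at least 1.32-fold. The probe at base 1523 had 4.83 in cKO A, 4.93 in cKO B, 4.25 in Control A and 4.23 in Control B, a bound of at least 1.10-fold. The 3 probes thus put cKO above Control by very different bounds, and the probes at bases 923 and 1523 lay close to background in the cKO lenses as well.

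**Figure D3:**
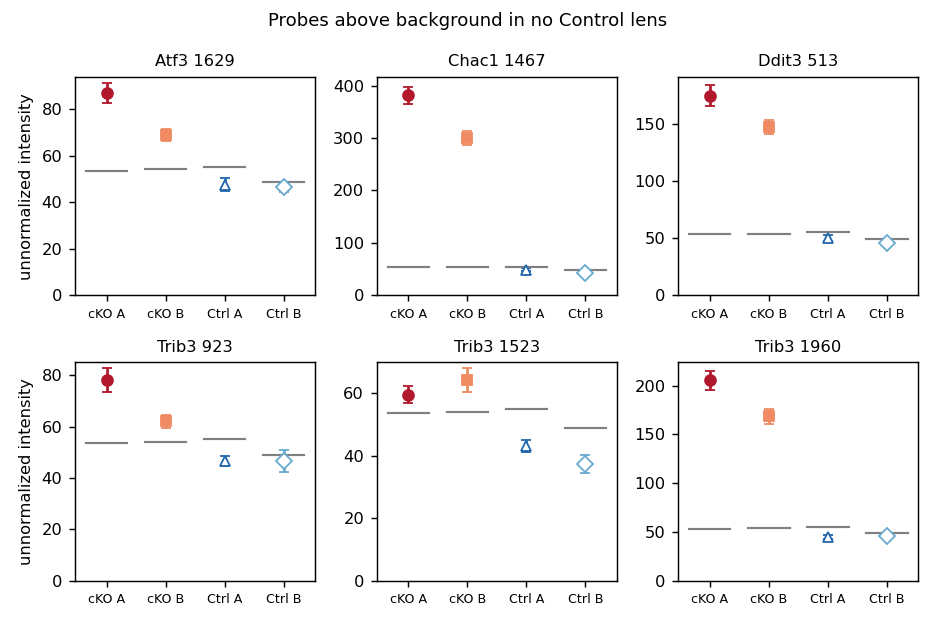
Unnormalized intensity on a linear axis from 0, with the standard error over beads as bars, for the 6 probes above background in no Control lens, in each of the 4 lenses. Grey lines give the lowest intensity above background on each array, 53.5 and 54.1 in cKO A and B and 55.0 and 48.9 in Control A and B. The filled cKO symbols lie above their line, widely for Chac1 (381 and 300) and narrowly for Trib3 at base 1523 (59.5 and 64.3).

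Ddit4, which encodes REDD1, an inhibitor of the growth kinase complex mTORC1, had log2 signals of 9.07 in cKO A, 9.13 in cKO B, 7.44 in Control A and 7.13 in Control B. The difference was 1.81 ± 0.17, or 3.51-fold, and the groups were 1.62 apart. Nupr1, a small chromatin-associated protein induced by many stresses, had 14.49 in cKO A, 14.76 in cKO B, 13.90 in Control A and 13.78 in Control B. The difference was 0.79 ± 0.17, or 1.73-fold, with a gap of 0.59. Its unnormalized intensities were 25325 and 30981 in cKO and 14302 and 10576 in Control, below the array maxima of 35286 to 41745.

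Within the cKO group, 9 of the 14 probes were brighter in cKO A and 5 in cKO B. All probes of Ddit3, Chac1, Atf3, Atf5 and Ppp1r15a, and those of Trib3 at bases 1960 and 923 and of Atf4 at base 1570, were brighter in cKO A, whereas those of Cebpb, Ddit4 and Nupr1, of Trib3 at base 1523 and of Atf4 at base 553 were brighter in cKO B. The SD between the 2 cKO lenses ranged from 0.01 (Atf4 at base 1570) to 0.63 (Ppp1r15a), with a median of 0.19, against a median of 0.11 over all retained probes. Between the 2 Control lenses it ranged from 0.01 (Trib3 at base 1523) to 0.38 (Atf5), with a median of 0.16 against 0.15 over all retained probes.

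The sign of the difference of each of the 14 probes was the same under every scaling and background correction tried and with any 1 lens left out in which the probe was still retained. Without scaling between the arrays the median of all genes was 0.57 above 0 and with a common median over all probes it was 0.53 above 0, while a common median over the probes above background in all 4 samples put it at -0.19. Over the settings that used all 4 lenses, the log2 difference of Ddit3 ranged from 3.49 to 4.59 at base 395 and from 1.29 to 3.15 at base 513. That of Atf4 ranged from 0.30 to 1.18 at base 1570 and from 0.49 to 1.39 at base 553. Atf5 ranged from 0.996 to 1.89, Atf3 from 0.39 to 1.72, Cebpb from 0.86 to 1.94, and Ppp1r15a from -1.58 to -0.67, the last without scaling. The range of Ddit3 at base 395 lay above those of Atf4, Atf5, Cebpb, Ddit4 and Nupr1, while many of the other ranges overlapped. Chac1 ranged from 2.32 to 4.90, Ddit4 from 1.61 to 2.64 and Nupr1 from 0.29 to 1.19. Trib3 ranged from 1.51 to 4.35 at base 1960, from 0.15 to 1.56 at base 923 and from 0.03 to 4.28 at base 1523. The bounds hold for the values as normalized here and not for every setting. With an offset of 50 in place of 16, 5 of the 6 probes with a bound lay below it, all but Trib3 at base 1523, with Chac1 at 2.32, Ddit3 at base 513 at 1.29 and Trib3 at base 1960 at 1.51 against bounds of 3.17, 1.96 and 2.20 on the log2 scale. Without background correction 4 of the 6 lay below their bounds, the exceptions being Trib3 at bases 923 and 1523. Under cyclic loess Chac1 (3.15) and, by under 0.01, Ddit3 at base 513 lay below theirs, and with a common median over the probes above background in all 4 samples all 6 did. Where the arrays shared the median of the probes above background in all 4 samples, the groups overlapped for 3 probes, those of Atf3 and of Trib3 at bases 1523 and 923, whose differences were 0.39, 0.03 and 0.15. In the authors' rank-invariant table with 16 added, Nupr1 differed by 0.29 and the groups did not overlap.

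**Figure D4:**
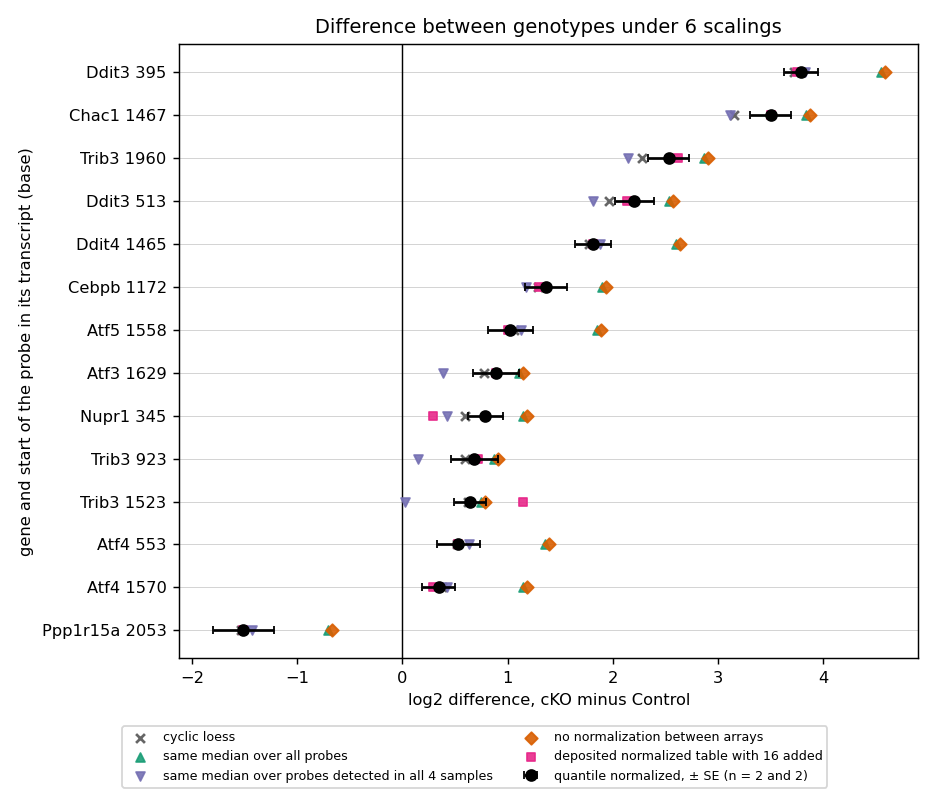
Log2 difference, cKO minus Control, of the 14 member probes after quantile normalization (black circles, with SE bars, n = 2 and 2) and under 5 other scalings (coloured symbols). The settings without scaling or with a common median over all probes lie to the right, and Trib3 at base 1523 comes closest to 0 (0.03).

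For the other genes of the pathway, 94 genes in 6 lists were taken, 92 were matched to a probe and 71 were retained. A call needed an adjusted p below 0.05 from limma, a log2 fold change larger than 0.58 in size, and a log2 signal that averaged more than 4.6. Of the 71 genes, 10 were elevated and 3 were reduced, and over all 11516 genes 6.01% were elevated and 5.66% were reduced. Their median log2 fold change was 0.18, against 0.01 over all genes, and 49 of the 71 lay above 0. Of the 67 genes above background in at least 1 Control lens, 8 were elevated and 3 were reduced, against 5.48% and 6.06% of all 10754 genes of that kind. At an unadjusted p under 0.05, 24 of the 71 genes were higher and 5 lower, against 16.8% and 15.1% of all genes. Among the 24 were Fos, Gdf15 and Slc7a3, which were above background in no Control lens and were retained through the cKO lenses alone. A common median over all probes gave 50 elevated and 0 reduced, where 45.8% and 1.25% of all genes were called, and no scaling gave 51 and 0, where 49.1% and 1.15% were. The authors' table with values under 1 set to 1 gave 0 and 0 by limma, with 5 and 2 of all 11516 genes called and 19 pathway genes higher and 5 lower at an unadjusted p under 0.05, so that every call named below was lost in that table. Without a detection filter, over 28842 genes of which 0.274% were elevated and 0.264% reduced, Sqstm1 and Phgdh were still called and each of the other calls named below was lost. Where 1 lens is left out below, a single lens stands for its group and is taken to vary like the 2 lenses of the other group, and no gene called here changed its sign. These lists were drawn up with earlier results of these data known, and with 2 lenses in each group an exact permutation test of 1 gene cannot go below p = 0.333.

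Of the eIF2 kinases, which start the pathway, 2 of 4 were retained. Eif2ak1, the heme-regulated kinase, had log2 signals of 6.59 and 6.62 in cKO A and B against 7.23 and 7.42 in Control A and B, a log2 fold change of -0.72 ± 0.14 (limma, adjusted p = 0.0268). Its log2 fold change turned to 0.03 with a common median over all probes and to 0.07 without scaling, and its call was lost with an offset of 50 (-0.57) and without cKO A, cKO B or Control B. Eif2ak2, the kinase that senses double-stranded RNA, had 6.90 and 6.88 against 6.84 and 6.64, and was not called (log2 fold change 0.15 ± 0.14, adjusted p = 0.521 by limma). Eif2ak3, the endoplasmic reticulum kinase PERK, was above background by 1 of its probes on 1 array (cKO B), and Eif2ak4, the amino acid sensor GCN2, on 0 arrays, so neither was tested.

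Among eIF2, its exchange factor eIF2B, the phosphatase and kinase inhibitors, 12 of 14 were tested, 1 was elevated and 0 were reduced by limma. At an unadjusted p under 0.05, 4 were higher and 1 lower, against 16.8% and 15.1% of all genes. The median log2 fold change was 0.09. The elevated gene was Eif2s3x, an X-linked subunit of eIF2 (0.64 ± 0.14, limma, adjusted p = 0.0322), whose call was lost on leaving out any 1 lens, while its log2 fold change then lay between 0.59 and 0.68. Xist and Ddx3y differed between these lenses too, as given above. Among bZIP partners, 9 of 13 were tested, 2 were elevated and 0 were reduced by limma, with a median of 0.46. At an unadjusted p under 0.05, 6 were higher and 0 lower, against 16.8% and 15.1% of all genes. Fos, among the 6, was above background in no Control lens and was retained through the cKO lenses alone. Junb had 6.51 and 6.78 in cKO A and B and 4.98 and 5.50 in Control A and B, a log2 fold change of 1.41 ± 0.21 (limma, adjusted p = 0.0130). Jund followed at 0.82 ± 0.14 (limma, adjusted p = 0.0198). Without cKO B, the adjusted p of Junb was 0.0961, and the call of Jund was lost without cKO A, cKO B or Control B. Jund was also not called without background correction (0.56) or with an offset of 50 (0.53).

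Among the effectors induced by ATF4 and CHOP, 28 of 37 were tested, 6 were elevated and 1 was reduced, with a median of 0.29. Over all genes 6.01% were elevated and 5.66% were reduced. At an unadjusted p under 0.05, 12 effectors were higher and 1 lower, against 16.8% and 15.1% of all genes. These counts include Gdf15 and Slc7a3, whose limit is given below. Sqstm1, which encodes the autophagy receptor p62, had the largest log2 fold change of the effectors above background in Control. It had 12.39 and 12.70 in cKO A and B and 10.39 and 10.35 in Control A and B. Its log2 fold change was 2.18 ± 0.16, or 4.53-fold (limma, adjusted p = 0.00223), and it was called with any 1 lens left out. Gdf15, a secreted stress cytokine, had 6.12 and 6.77 in cKO A and B and was not above background in Control, which made it at least 3.25-fold higher. Its log2 fold change was less than this bound with an offset of 50 (1.12), without background correction (1.24) and with a common median over the probes above background in all 4 samples (1.57). The amino acid carriers Slc1a4 and Slc7a3 were elevated too. Slc1a4, a carrier of neutral amino acids, rose by 1.25 ± 0.17 on the log2 scale (limma, adjusted p = 0.0110), with an adjusted p of 0.0854 without cKO B. Slc7a3, a carrier of cationic amino acids, was at least 1.71-fold higher. It lost its call without Control B and with an offset of 50. Its log2 fold change was less than this bound in the same 3 settings as for Gdf15, at 0.54, 0.66 and 0.64. Without a detection filter, where probes not retained entered its mean, it was also less (0.665). Both Gdf15 and Slc7a3 passed the detection filter through the cKO lenses alone, so their calls are not independent of the filter and no p is given for them.

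Psat1, a transaminase of serine synthesis, had 10.66 and 11.03 in cKO A and B against 9.73 and 9.83 in Control A and B, a log2 fold change of 1.07 ± 0.17 (limma, adjusted p = 0.0152). Phgdh, an enzyme of serine synthesis, had 7.31 and 7.33 against 8.27 and 8.35, a log2 fold change of -0.99 ± 0.14 (limma, adjusted p = 0.0110). It was not called at -0.19 with a common median over all probes or at -0.15 without scaling. Phgdh and Gadd45a, a growth arrest gene at 1.06 ± 0.22 (limma, adjusted p = 0.0289), fell outside the rule for named genes and were named after their values were seen. Calls were lost for Psat1 without cKO B or Control B, for Phgdh without cKO A or cKO B, and for Gadd45a without cKO A, Control A or Control B. By its brightest probe alone Gadd45a was not called either (0.92, limma, adjusted p = 0.0627).

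In the IRE1 and ATF6 arms of the unfolded protein response, which run beside the PERK arm, 12 of 18 genes were tested, 1 was elevated and 1 was reduced, with a median of 0.12. Dnajb9, a co-chaperone of the endoplasmic reticulum, was elevated by 1.11 ± 0.16 on the log2 scale (limma, adjusted p = 0.0123), and Pdia6, a disulfide isomerase, was reduced (-0.71 ± 0.15, limma, adjusted p = 0.0302). Pdia6 was not called at -0.09 with a common median over all probes, at -0.05 without scaling, at -0.50 without background correction or at -0.48 with an offset of 50. Dnajb9 lost its call without cKO B or Control B, and Pdia6 without cKO A, cKO B or Control B. In the mitochondrial stress list all 8 genes were tested, and limma called 0 of them in either direction. The median was 0.05, with log2 fold changes from -0.54 to 0.41. At an unadjusted p under 0.05, 1 was higher and 1 lower, against 16.8% and 15.1% of all genes.

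**Figure D5:**
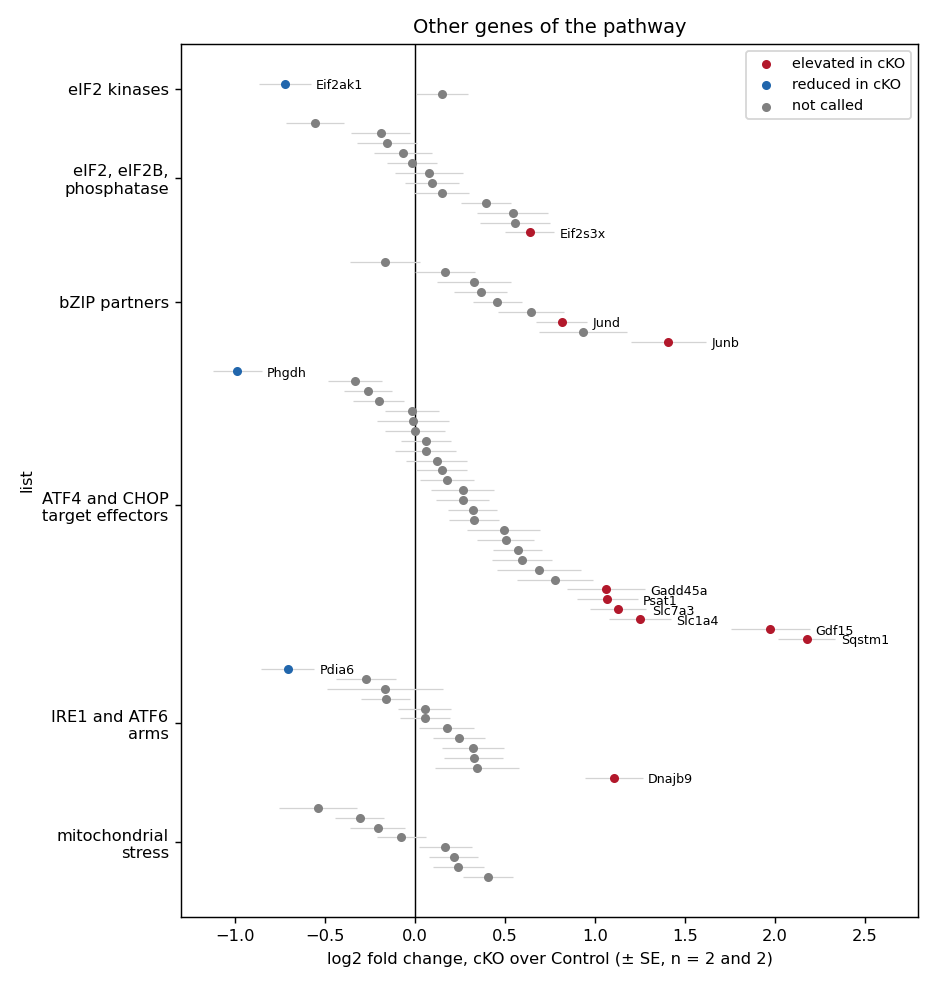
Log2 fold change, cKO over Control, with SE bars (n = 2 and 2) for the 71 retained genes of the 6 other lists, with red for called elevated, blue for called reduced and grey for not called. Of the 10 elevated genes, 6 lie in the list of ATF4 and CHOP target effectors, which holds 28 of the 71 genes. Over all 11516 genes 6.01% were elevated. The 6 include Sqstm1 (2.18), and Gdf15 and Slc7a3, which were retained through the cKO lenses alone.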

How the data were processed

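Total RNA of 1 lens per sample was hybridised to Illumina MouseWG-6 v2.0 BeadChips in 4 samples, 2 Celf1 cKO and 2 Control. The authors deposited unnormalized signal intensity and intensity scaled by the rank-invariant method, both exported from the scanner software, with a detection p-value and the bead number and standard error for each probe. Of 45281 probes, 18 with shifted cells were left out. Gene names came from a RefSeq table of GRCm38.p6 (29586 probes by Entrez identifier, 2759 by accession, 2214 by symbol, 2370 by older symbol), and 8334 probes kept the name in the files. Probe positions were not used, since the files name no build.

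The unnormalized intensity underwent the neqc procedure of limma 3.58.1 in R 4.3.3, which corrects the background, adds an offset of 16, normalizes by quantiles and takes log2. A probe was kept if its detection p-value was below 0.05 on 2 or more arrays (16262 probes). Members were fitted by probe, other genes as the mean of their probes, by limma (lmFit, then eBayes). Tests were two-sided, and p-values were adjusted by Benjamini-Hochberg across the 11516 genes. The adjusted p and fold thresholds follow the study's methods, and the minimum of 4.6 takes the study's figure but acts here on values with the offset added. The authors' tool, edgeR, models counts and was not applied to these intensities. The replicate letters did not pair the samples (across genes, the difference between A and B in cKO correlated at -0.011 with that in Control), so the letter was no block. The fit was tested on simulated data. The members and lists were chosen with earlier results of these data known. Named genes were the members, Celf1, the eIF2 kinases and, from each other list, up to 5 called genes of largest change whose groups did not overlap. Phgdh, Gadd45a and Fos were named outside this rule. The methods call each lens a biological replicate, and the labels do not say whether the lenses of a genotype came from different mice. The p-values set the difference between the groups against the spread within them, so they may not cover variation between mice. The number of arrays limits the precision. Alternatives covered the table, background correction, scaling, detection filter, probe rule, fold threshold, variance model, replicate block and leaving out each sample.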

Additional observations from a re-analysis of the deposited data

How the results depend on the processing

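Of the 14 member probes, 14 kept their sign under the 13 settings that used all samples, wherever they were retained. Of the counts, 13 probes higher and 1 lower were found in most settings, with 10 higher where arrays shared the median of the probes above background in all 4 samples. With detection required in all 4 samples, 7 of the 8 member probes left were higher. Leaving out each sample gave 7 to 13 higher, since 8 probes were retained without either cKO lens. For the other pathway genes, the deposited table with a floor of 1 gave 0 elevated and 0 reduced by limma, with 19 and 5 at an unadjusted p under 0.05. Of all 11516 genes, 5 and 2 were called there. A common median over all probes gave 50 elevated and 0 reduced (45.8% and 1.25% of all genes), and no scaling gave 51 and 0 (49.1% and 1.15%), each with 0 lower at an unadjusted p under 0.05. These settings move the median of all genes, as given above. A common median over the probes above background in all 4 samples gave 7 reduced (17.6% of all genes), an offset of 50 gave 1 reduced (3.46%), and no detection filter gave 1 elevated and 1 reduced (0.274% and 0.264% of 28842 genes). Leaving out each sample gave 2 to 10 elevated, namely 5 when cKO A (2.13% of all genes), 2 when cKO B (0.496%) and 4 when Control B (1.30%) was left out, and 0 to 3 reduced, namely 0 by limma when cKO A (2.70%) or cKO B (0.63%) and 1 when Control B (1.34%) was left out. At an unadjusted p under 0.05, 12 genes were higher and 5 lower with cKO A left out, and 13 and 4 with cKO B left out, against 24 and 5 with all lenses. With the letter as a replicate block, which does not pair these samples, 15 were elevated, 3 were reduced (7.91% and 7.29% of all genes), and 13 member probes were higher and 1 lower. Celf1 lost its call in the deposited table with a floor of 1 (adjusted p = 0.0762), without a detection filter (0.0732) and without cKO B (0.0654). The cause of these changes was not tested. Probes not above background in Control limit the fold of Atf3, Chac1, Trib3 and Ddit3 at base 513 to a bound.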
